A study of Mus musculus with 24 samples.

Results

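The carnitine shuttle genes were the rows of the read counts table named Cpt1a, Cpt1b, Cpt1c, Cpt2, Slc25a20, Slc22a5, Crat and Crot, chosen by symbol alone, and all 8 were found among 24091 genes. All 8 were among the 13520 genes that passed the filter on low counts and were tested, Cpt1c only through the WT and CP CML groups, where it is high. Counts came from bulk RNA-seq of Lin-Sca-1+c-Kit+ cells (LSKs) of the bone marrow, the gate that holds hematopoietic stem cells and early progenitors, from 24 B6 mice, 6 in each of 4 groups with 3 females and 3 males in each. WT mice were miR-142+/+ and miR-142 KO mice were miR-142-/-, both labelled without BCR-ABL. CP CML (chronic phase chronic myeloid leukemia) mice were miR-142+/+ BCR-ABL, and BC CML (blast crisis) mice were miR-142-/- BCR-ABL. Both CML groups carried the SCLtTA/BCR-ABL transgenes, in which withdrawal of tetracycline switches on BCR-ABL (tet-off), and LSKs were taken 2 weeks after the withdrawal. The CML mice were matched for age, gender and the levels of SCL and BCR-ABL, and ages were not given in the sources used here. The methods of the paper give fewer mice per group without naming them, so all 6 labelled mice were used.

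Long-chain fatty acids cannot cross the inner mitochondrial membrane as coenzyme A esters. Carnitine enters the cell through the sodium-dependent transporter OCTN2, the product of Slc22a5. On the outer mitochondrial membrane a carnitine palmitoyltransferase of the CPT1 family (Cpt1a, the liver form found in most tissues, or Cpt1b, the muscle form) moves the acyl chain onto carnitine. This step is blocked by malonyl-CoA and is regarded as rate-limiting for fatty acid oxidation. The family also holds Cpt1c, a brain form with little catalytic activity. The carrier encoded by Slc25a20 exchanges the acylcarnitine for free carnitine across the inner membrane, and Cpt2 on the matrix side returns the chain to coenzyme A. Crat (carnitine acetyltransferase) handles acetyl and other short chains, and Crot (carnitine octanoyltransferase) handles the medium chains that leave peroxisomes.

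The groups differ by miR-142, so the mature sequences are shown first, with the seed (bases 2 to 8) in capitals. Both come from RefSeq on GRCm38.p6, the plus strand of chr11:87756867-87756887 for the 5p arm and of chr11:87756903-87756925 for the 3p arm.
mmu-miR-142a-5p: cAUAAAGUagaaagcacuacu
mmu-miR-142a-3p: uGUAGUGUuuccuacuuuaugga
The 3′ UTRs of the 8 genes (GENCODE M21, 1 transcript per gene) were searched on the transcript strand for the matches to these seeds, ACTTTAT for the 5p arm and ACACTAC for the 3p arm, and for the forms with bases 2 to 7 and a final A. Only Crot held a match, 1 for the 3p arm, beginning at base 547 of a 3′ UTR of 819 bases, on the minus strand of chr5:8966288-8966316 (mm10). It is shown with the match in capitals because it is the only one among the 8 genes.
Crot: tagaaatttttACACTACcacagaaaaga
A match to the 3p seed was present in 1328 of the 12431 genes with a 3′ UTR (10.7%) and one to the 5p seed in 2623 (21.1%). The other 7 genes had no match to either seed in windows of 126 (Cpt1c) to 2107 bases (Crat), with 1892 bases for Cpt1a. The Cpt1c gene of the counts table extends past its GENCODE end, and that stretch was not searched. A match is a description of these letters and not a measured site. Other transcripts, coding sequences and weaker forms of a match were not searched, so a gene without a match may still be a target. The paper cites CPT1A as a reported target of miR-142.

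The 2 promoters printed here belong to Cpt1a and Slc25a20, whose levels moved most alike among the 8 genes. Each runs from 250 bases before to 50 after the start (RefSeq, GRCm38.p6), on the plus strand of chr19:3323051-3323350 and of chr9:108661886-108662185. A CCAAT box is in capitals in Cpt1a, and Slc25a20 held none.
Cpt1a: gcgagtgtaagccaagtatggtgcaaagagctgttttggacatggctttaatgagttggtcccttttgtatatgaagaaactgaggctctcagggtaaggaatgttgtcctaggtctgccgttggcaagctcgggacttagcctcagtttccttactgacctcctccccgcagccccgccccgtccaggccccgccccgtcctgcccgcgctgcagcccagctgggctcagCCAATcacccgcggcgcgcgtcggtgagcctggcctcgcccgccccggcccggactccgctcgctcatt
Slc25a20: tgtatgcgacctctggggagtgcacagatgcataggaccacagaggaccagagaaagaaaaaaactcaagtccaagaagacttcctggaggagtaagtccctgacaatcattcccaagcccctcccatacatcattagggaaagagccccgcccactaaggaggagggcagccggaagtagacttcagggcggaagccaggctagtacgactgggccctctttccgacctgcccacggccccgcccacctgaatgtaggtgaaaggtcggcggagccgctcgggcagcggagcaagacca
Promoters of 6 of the 8 genes were matched; those of Cpt1b and Crat were not. CCAAT, searched on both strands, was present in Cpt1a, Cpt1c and Crot and in 37.4% of 32851 promoters. The core of the antioxidant response element, TGACNNNGC on either strand, was present in 0 of the 6 and in 12.4% of all promoters.

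Total counts per library ran from 16267965 (a CP CML female) to 24687077 (a BC CML male). Levels within a gene are counts scaled to the library total (CPM), corrected with TMM factors, which were 1.03 to 1.06 in WT and 0.944 to 0.981 in BC CML LSKs, without overlap. The labels were checked on Mir142, which had 94 to 127 counts in WT, 68 to 153 in CP CML and 0 in every miR-142 KO and BC CML library; a count of 0 allows up to 3 counts, for counting error only. The markers of the gate (Kit, Ly6a, Cd34 and Cd48) summed to 2055 to 2618 CPM over all libraries. Markers of other lineages are given for all lists, beside the share of all 13520 tested genes that rose or fell (adjusted p below 0.05). Between CP CML and BC CML LSKs, where 20.4% of all genes rose and 17.6% fell, the median summed level went from 5889 to 7246 CPM for neutrophil-primed progenitor markers (4 of 7 tested rose) and from 2000 to 5604 CPM for mast cell and basophil markers (3 of 6 rose). It went from 357 to 36.7 CPM for B and plasma cell markers (4 of 8 fell), from 394 to 260 for HSC markers (5 of 8 fell), from 1130 to 577 for lymphoid-primed markers (1 of 6 rose, 2 fell) and from 14.6 to 2.75 for erythroid markers (2 of 4 fell). Megakaryocyte markers went from 328 to 291 (2 of 6 fell), macrophage markers from 206 to 59.2 (1 of 6 fell) and T and NK cell markers from 75.8 to 98 CPM (1 of 4 rose, 1 fell), and no list had a marker at 0 counts in all libraries of a group. Of the 4 gate markers 1 rose and 1 fell. Between WT and miR-142 KO LSKs, where 19.9% of all genes rose and 16.4% fell, 7 of 7 neutrophil-primed and 5 of 6 mast cell and basophil markers rose, and 6 of 8 HSC, 4 of 6 lymphoid-primed, 5 of 6 macrophage, 3 of 8 B and plasma cell and 1 of 4 erythroid markers fell. Of 6 megakaryocyte markers 4 rose and 1 fell, of 4 T and NK cell markers 3 rose and 1 fell, and 1 of 4 gate markers rose. Between WT and CP CML LSKs, where 22.5% of all genes rose and 22.9% fell, 6 of 7 neutrophil-primed and 4 of 6 mast cell and basophil markers rose, and 7 of 8 HSC, 5 of 6 lymphoid-primed, 4 of 4 erythroid and 1 of 8 B and plasma cell markers fell. Of 6 megakaryocyte markers 1 rose and 3 fell, of 4 gate markers 1 rose and 1 fell, and 0 of the 6 macrophage and 0 of the 4 T and NK cell markers passed the test. Between miR-142 KO and BC CML LSKs, where 20.3% of all genes rose and 19.3% fell, 4 of 7 neutrophil-primed, 3 of 6 mast cell and basophil and 1 of 6 macrophage markers rose. In that comparison 5 of 8 HSC, 2 of 6 lymphoid-primed, 2 of 8 B and plasma cell, 2 of 4 T and NK cell, 4 of 4 erythroid, 5 of 6 megakaryocyte and 1 of 4 gate markers fell. The part of these lineages in the results below was not tested, and in bulk libraries fewer cells of a type and less RNA per cell cannot be told apart.

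Compared per gene length (RPKM, CPM divided by the length in kb of the counts table), Cpt1a was by far the most abundant of the 8 transcripts, at 70.7 RPKM on average over 24 libraries (range 51.4 to 102.9). Slc25a20 followed at 18.95 (15.1 to 24.1), then Crot at 16.7 (13 to 19.6), Cpt2 at 12.4 (8.72 to 14.9), Slc22a5 at 8.69 (7.76 to 10.1) and Crat at 6.60 (4.48 to 8.78). Cpt1b was at 2.02 (1.51 to 2.76) and Cpt1c at 0.102 RPKM (0.00764 to 0.240). The ranges of Slc25a20, Crot and Cpt2 overlapped from one to the next, as did those of Cpt2 and Slc22a5 and of Slc22a5 and Crat, whereas Cpt1a, Cpt1b and Cpt1c each stood clear of their neighbours. Of the summed RPKM of the 3 CPT1 genes, Cpt1a made up 96.9% ± 0.42 in BC CML, 97.1% ± 0.59 in CP CML, 97.1% ± 0.095 in miR-142 KO and 97.1% ± 0.40 in WT LSKs (SD, n = 6).

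**Figure D1:**
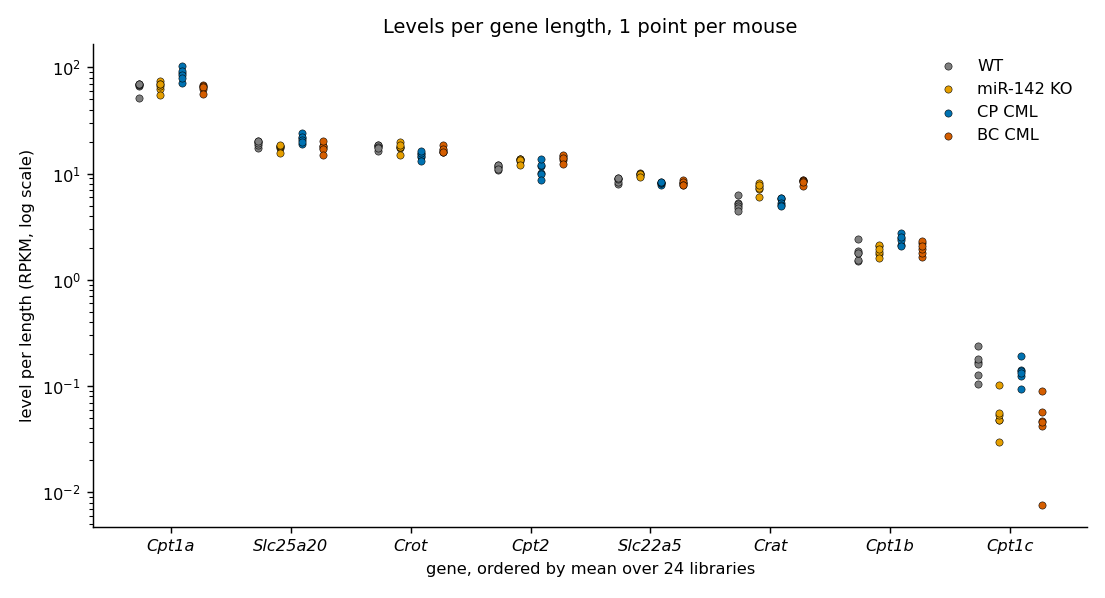
Levels per gene length in RPKM on a log axis for the 8 genes, ordered by their mean over 24 libraries, with 1 point per mouse and groups in color. Cpt1a stood highest at 51.4 to 102.9 RPKM and Cpt1c lowest at 0.00764 to 0.240 RPKM.

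The comparison of BC CML with CP CML LSKs asks what the loss of miR-142 changed on a BCR-ABL background. In it, 6 of the 8 genes passed an adjusted p of 0.05 in edgeR's quasi-likelihood test, where 38.0% of all tested genes did. Crat, Cpt2 and Crot rose (3 genes; 20.4% of all genes rose), and Cpt1a, Slc25a20 and Cpt1c fell (3 genes; 17.6% of all genes fell). The count includes Cpt1c, which had passed the filter through the group where it is high. The transcripts of Cpt1a and of the carrier thus fell, while those of Cpt2, Crat and Crot rose. The Crot call was lost in some alternatives given below, and Cpt1b did not pass the test. These are transcript levels, and protein was not measured in these libraries. The 6 values of each group did not overlap for 3 genes, Cpt1a, Cpt1c and Crat, which held for 20.7% of all tested genes.

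Between miR-142 KO and WT LSKs, the same loss without BCR-ABL, 4 genes passed the test (36.3% of all genes). Crat, Slc22a5 and Cpt2 rose (19.9% of all genes) and Cpt1c, with the same limit, fell (16.4%), and the groups did not overlap for Cpt1c and Slc22a5 (14.5% of all genes). Between CP CML and WT LSKs, which differ by BCR-ABL, 3 genes passed (45.4% of all genes). Cpt1a and Cpt1b rose (22.5%), Crot fell (22.9%), and Cpt1a alone of the 8 showed no overlap (21.8%). Between BC CML and miR-142 KO LSKs 2 passed (39.6%), Crat with a rise (20.3%) and Slc22a5 with a fall (19.3%), and Slc22a5 alone showed no overlap (10.6%). Comparisons that share a group are not independent of each other.

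**Figure D2:**
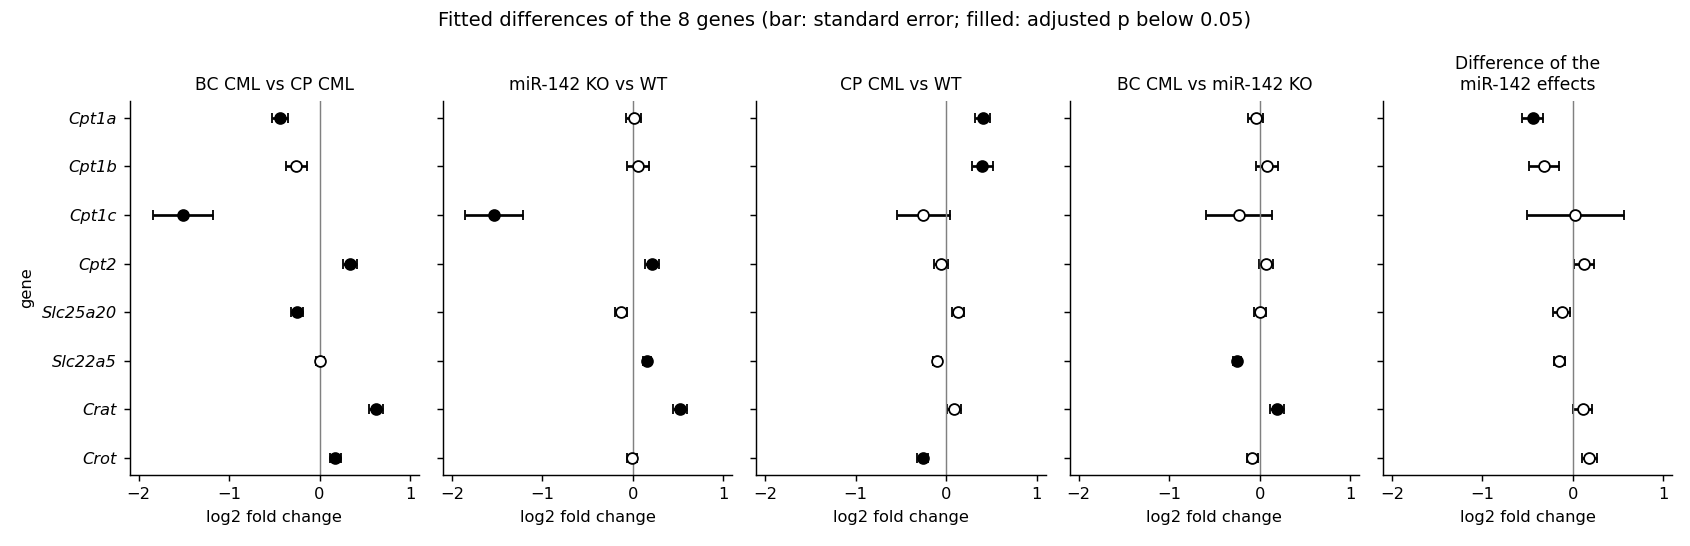
Fitted log2 fold changes (first group minus second, x axis) of the 8 genes (y axis) in 4 comparisons and in the difference of the miR-142 effects. Bars are standard errors and filled points have an adjusted p below 0.05; Cpt1a lies at -0.44 for BC CML against CP CML and at 0.0098 for miR-142 KO against WT.

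Cpt1a (chromosome 19, 3323301 to 3385733, plus strand of mm10) had its highest levels in CP CML LSKs. The 6 CP CML libraries had a lowest, median and highest level of 304, 373.5 and 441 CPM. The corresponding levels were 240.1, 281 and 291 CPM in BC CML LSKs. In WT LSKs they were 220.2, 294 and 298 CPM, and in miR-142 KO LSKs 234, 292 and 317 CPM. All CP CML libraries were above all WT and BC CML libraries, while the highest miR-142 KO library was above the lowest CP CML library. Scaled to totals without TMM factors, the CP CML and WT libraries overlapped, with means of 372.9 ± 45.4 and 293.5 ± 30.3 CPM (SD). Means were 371.5 ± 46.8 in CP CML, 274.5 ± 18.7 in BC CML, 281 ± 30.4 in WT and 283 ± 29 CPM in miR-142 KO LSKs (SD, n = 6). Cpt1a therefore fell by 0.44 on the log2 scale from CP CML to BC CML (standard error 0.085, adjusted p = 0.000299) and rose by 0.40 from WT to CP CML (standard error 0.085, adjusted p = 0.000602). From WT to miR-142 KO the log2 fold change was 0.0098 (standard error 0.085, adjusted p = 0.941), with bounds at 2 standard errors of -0.16 and 0.18.

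Whether the loss of miR-142 went with a different change in Cpt1a with and without BCR-ABL was tested as the difference of the fold changes of BC CML against CP CML and of miR-142 KO against WT. This difference was -0.45 on the log2 scale (standard error 0.12, adjusted p = 0.0345), and Cpt1a was the only one of the 8 genes past the threshold, as were 3.99% of all genes. The call was lost without WT replicate 1 (-0.38, adjusted p = 0.0537) and without miR-142 KO replicate 4 (-0.43, adjusted p = 0.0543). The level in CP CML LSKs was 406 CPM on average in females and 337 in males. In a fit on the 12 females the rise from WT to CP CML was 0.62 (adjusted p = 0.00397), in a fit on the 12 males the log2 fold change was 0.18 (adjusted p = 0.221), and this difference between sexes was not tested. The fall from CP CML to BC CML was 0.55 in females (adjusted p = 0.00647) and 0.32 in males (adjusted p = 0.0341), and the difference of -0.21 between the sexes had an adjusted p of 0.996. The difference of the miR-142 effects was -0.67 in females (adjusted p = 0.116) and -0.22 in males (adjusted p = 0.593).

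**Figure D3:**
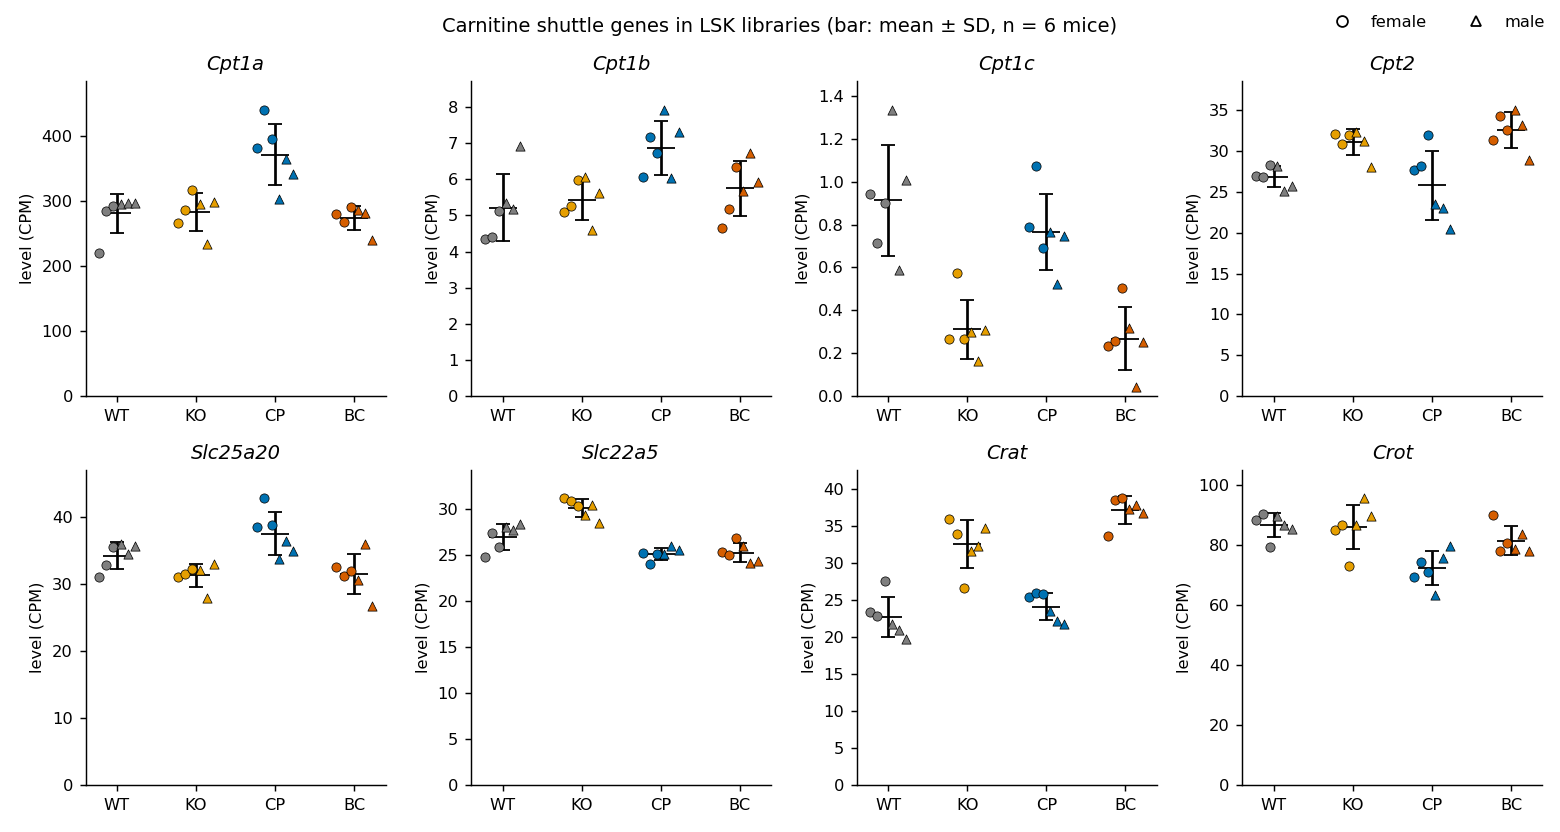
Levels of the 8 genes in CPM (y axes, from 0) in the 4 groups of LSKs, 1 point per mouse (circles females, triangles males), with the mean and SD of 6 mice. Cpt1a was highest in CP CML LSKs (304 to 441 CPM), and Crat was higher in BC CML (33.7 to 38.8 CPM) than in CP CML LSKs (21.7 to 25.9 CPM).

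Cpt1b (chromosome 15, 89416405 to 89425862, minus strand) was low in LSKs, with 99 to 186 counts per library. Its mean was 5.75 ± 0.75 CPM in BC CML, 6.88 ± 0.75 in CP CML, 5.43 ± 0.56 in miR-142 KO and 5.22 ± 0.93 in WT LSKs (SD, n = 6), and every pair of groups overlapped. It rose by 0.40 on the log2 scale from WT to CP CML (standard error 0.12, adjusted p = 0.00828). Between CP CML and BC CML the log2 fold change of -0.26 did not pass the test (standard error 0.12, adjusted p = 0.0858). Between WT and miR-142 KO it was 0.058 (adjusted p = 0.732). The rise from WT to CP CML was 0.53 in females (adjusted p = 0.0362), and the value in males was 0.28 (adjusted p = 0.249). This difference between the sexes was not tested. The annotation places 81.4% of the exonic bases of Cpt1b inside Gm44502 on the same strand, a transcript not analysed here, so reads of the pair cannot be told apart. Chkb, 497 bases away and the closest gene with counts, was at 49.3 ± 5.91 CPM in BC CML and 51.4 ± 4.56 in CP CML LSKs (log2 fold change -0.061, adjusted p = 0.558).

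Cpt1c (chromosome 7, 44958484 to 44974851, minus strand) was close to the detection limit, and its levels split by miR-142 genotype. Counts per library were 14 to 31 in WT and 12 to 26 in CP CML, against 4 to 13 in miR-142 KO and 1 to 10 in BC CML LSKs. In CPM the lowest, median and highest levels were 0.0425, 0.257 and 0.504 in BC CML LSKs and 0.524, 0.756 and 1.07 in CP CML LSKs. The 2 groups did not overlap, and neither did WT (0.586, 0.922 and 1.33 CPM) and miR-142 KO (0.164, 0.281 and 0.574 CPM). Cpt1c fell by 1.51 on the log2 scale from CP CML to BC CML (standard error 0.34, adjusted p = 0.00107) and by 1.54 from WT to miR-142 KO (standard error 0.32, adjusted p = 0.000636). The difference between these 2 changes was 0.025 (standard error 0.54, adjusted p = 0.988), with bounds at 2 standard errors of -1.05 and 1.1. Differences between these bounds were not excluded at this depth. Cpt1c passed the filter on low counts only through WT and CP CML LSKs, so its calls are a description and no support for a change in the members. It was not tested under a filter of at least 1 CPM in 6 libraries, nor for BC CML against miR-142 KO with only those 2 groups. With 3 females per group the changes were -1.38 (adjusted p = 0.0558) and -1.21 (adjusted p = 0.0652), and with 3 males -1.72 (adjusted p = 0.0313) and -1.91 (adjusted p = 0.0162). The tests of these sex differences gave 0.35 (adjusted p = 0.996) and 0.71 (adjusted p = 0.853). An antisense transcript, 6530437J22Rik, covers 6.53% of its exonic bases, and the strand setting of the counting is not given in the sources used here. Prmt1, 1138 bases away on the same strand, was at 218 ± 16.1 CPM in BC CML and 223 ± 13.4 in CP CML LSKs (adjusted p = 0.803).

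Slc25a20 (chromosome 9, 108662098 to 108684641, plus strand), the carnitine-acylcarnitine carrier of the inner membrane, was highest in CP CML LSKs. Its lowest, median and highest levels were 26.7, 31.5 and 36 CPM in BC CML LSKs and 33.7, 37.5 and 42.75 CPM in CP CML LSKs, which overlapped. Means were 37.5 ± 3.26 and 31.5 ± 2.996 CPM (SD, n = 6), against 34.2 ± 1.96 in WT and 31.3 ± 1.74 CPM in miR-142 KO LSKs. Slc25a20 fell by 0.25 on the log2 scale from CP CML to BC CML (standard error 0.066, adjusted p = 0.00378). The log2 fold change was -0.13 from WT to miR-142 KO (adjusted p = 0.122) and 0.13 from WT to CP CML (adjusted p = 0.102), and neither passed the test with both sexes. In females alone it rose by 0.28 from WT to CP CML (adjusted p = 0.0206), and the value in males was -0.022 (adjusted p = 0.894). This difference between the sexes was not tested. By sex, the fall from CP CML to BC CML was 0.35 in females (adjusted p = 0.011), and the value in males was -0.17 (adjusted p = 0.229). The test of that sex difference gave -0.16 (females minus males, adjusted p = 0.996).

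Of all tested genes with a name, Slc25a20 was the one whose log2 CPM followed Cpt1a most closely over the 24 libraries (Pearson r = 0.858). This is a description only, since the libraries share groups and sexes. Ddx59, an RNA helicase (r = 0.822), Ext1, a heparan sulfate polymerase (r = 0.819), and Atp8a2, a phospholipid flippase (r = 0.793), came next. Like Cpt1a, each had its highest mean in CP CML LSKs: Ddx59 was at 19.8 ± 1.08 CPM there and 14.9 to 16.7 CPM on average in the other groups, Ext1 at 30.7 ± 2.70 against 20.3 to 22.1, and Atp8a2 at 7.34 ± 0.86 against 3.42 to 4.69 CPM.

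Cpt2 (chromosome 4, 107903982 to 107923589, minus strand), the matrix-side partner of Cpt1a, went the other way. The lowest, median and highest levels were 28.9, 32.8 and 35 CPM in BC CML LSKs and 20.45, 25.6 and 31.95 CPM in CP CML LSKs. In WT LSKs they were 25.1, 26.9 and 28.3 CPM, and in miR-142 KO LSKs 28, 31.5 and 32.3 CPM. CP CML libraries were spread widest and reached into the BC CML range, and the highest WT level was just above the lowest miR-142 KO level. Cpt2 rose by 0.34 on the log2 scale from CP CML to BC CML (standard error 0.079, adjusted p = 0.00182) and by 0.21 from WT to miR-142 KO (standard error 0.079, adjusted p = 0.0405). The second call was lost when any 1 of 6 libraries was left out, WT replicates 1, 5 and 6 and miR-142 KO replicates 1, 3 and 4 (log2 fold changes from 0.20 to 0.21, adjusted p from 0.0529 to 0.0709), without a filter on low counts (adjusted p = 0.055) and under upper quartile normalization (adjusted p = 0.116).

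The CP CML level of Cpt2 was 29.25 CPM on average in females and 22.35 in males, with 32.7 and 32.3 CPM in BC CML LSKs. The rise from CP CML to BC CML was 0.53 in males (adjusted p = 0.0023), and the value in females was 0.15 (adjusted p = 0.248). The test of that sex difference gave -0.37 (females minus males; standard error 0.12, unadjusted p = 0.0054, adjusted p = 0.996). In edgeR 0 of the 13520 genes passed the threshold for a sex difference of this comparison (0%), and 1 gene, none of the 8, did for miR-142 KO against WT (0.00740%).

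**Figure D4:**
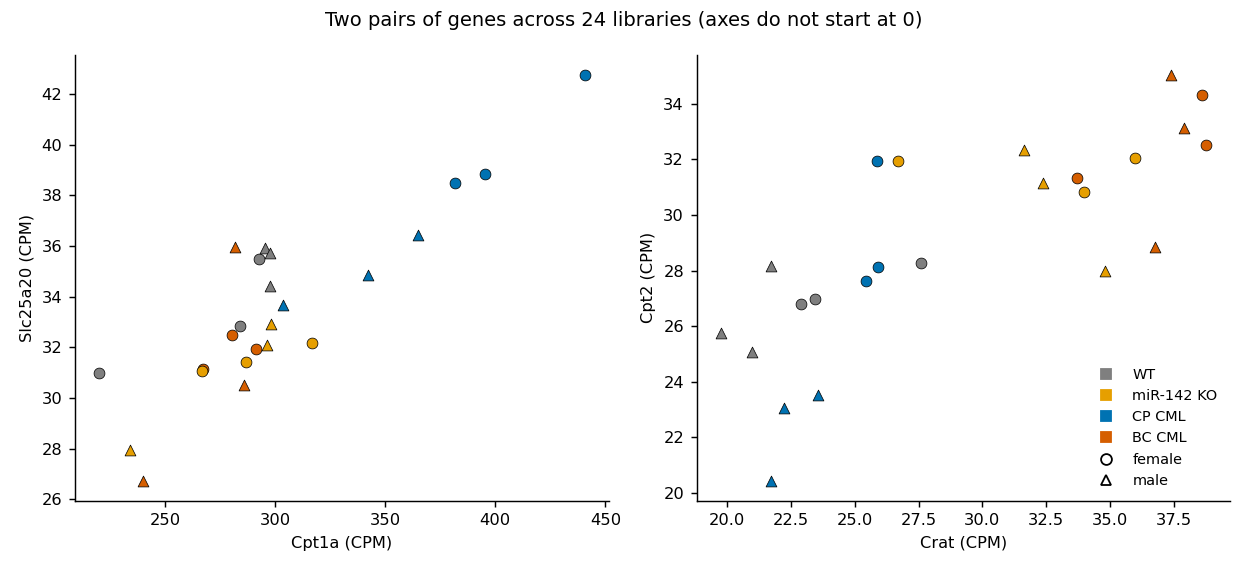
Levels in CPM of Cpt1a (x) and Slc25a20 (y) on the left and of Crat (x) and Cpt2 (y) on the right, 1 point per mouse, with groups in color and sex as the shape. The highest Cpt1a library, a CP CML female at 441 CPM, also had the highest Slc25a20 level at 42.75 CPM, and r over 24 libraries was 0.858 for the first pair and 0.776 for the second.

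Slc22a5 (chromosome 11, 53864542 to 53891703, minus strand), the carnitine importer of the plasma membrane, had the smallest spread between mice, with a mean coefficient of variation of 3.77% within groups. Its lowest, median and highest levels were 28.5, 30.4 and 31.2 CPM in miR-142 KO LSKs and 24.7, 27.5 and 28.3 CPM in WT LSKs. They were 24.15, 25.2 and 26.8 CPM in BC CML LSKs and 24, 25.2 and 25.95 CPM in CP CML LSKs. All miR-142 KO libraries were above those of the other 3 groups. Scaled to totals without TMM factors, the miR-142 KO and WT libraries overlapped, with means of 29.97 ± 1.25 and 28.18 ± 1.49 CPM (SD). Slc22a5 rose by 0.16 from WT to miR-142 KO (standard error 0.044, adjusted p = 0.00661) and fell by 0.25 from miR-142 KO to BC CML (standard error 0.044, adjusted p = 0.000137). The rise from WT was 0.11 under upper quartile normalization (adjusted p = 0.0607) and 0.066 in males (adjusted p = 0.542), with 0.24 in females (adjusted p = 0.0389). The test of that sex difference gave 0.18 (females minus males, adjusted p = 0.637). Between CP CML and BC CML the log2 fold change was 0.0062 (standard error 0.044, adjusted p = 0.925), with bounds at 2 standard errors of -0.082 and 0.094. Its relatives Slc22a4 and Slc22a21 were counted separately, and how reads that fit more than 1 of them were treated is not given in the sources used here.

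Crat (chromosome 2, 30400476 to 30415748, minus strand) had the largest rise of the 8 genes. Its lowest, median and highest levels were 33.7, 37.6 and 38.8 CPM in BC CML LSKs and 21.7, 24.5 and 25.9 CPM in CP CML LSKs. In WT LSKs they were 19.8, 22.3 and 27.6 CPM, and in miR-142 KO LSKs 26.7, 33.2 and 36 CPM. CP CML and BC CML did not overlap, and of WT and miR-142 KO only the highest WT library was above the lowest miR-142 KO library. Crat rose by 0.62 on the log2 scale, 1.54-fold, from CP CML to BC CML (standard error 0.077, adjusted p = 1.17e-06) and by 0.52, 1.43-fold, from WT to miR-142 KO (standard error 0.076, adjusted p = 1.29e-05). These 2 rises differed by 0.11 (standard error 0.11, adjusted p = 0.644). Crat rose from CP CML to BC CML by 0.51 in females (adjusted p = 0.0182) and by 0.73 in males (adjusted p = 3.88e-05). The rise of 0.19 from miR-142 KO to BC CML (standard error 0.076, adjusted p = 0.0485) was lost when any 1 of 10 of the 12 libraries was left out, all but miR-142 KO replicate 1 and BC CML replicate 1 (log2 fold changes from 0.13 to 0.19, adjusted p from 0.0619 to 0.1401). It was also lost in DESeq2 (adjusted p = 0.0533).

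Dolpp1 lies on the opposite strand and shares 1.1% of the exonic bases of Crat, and the antisense Gm16323 shares 7.63%. Dolpp1 also rose from CP CML to BC CML (0.37, adjusted p = 0.000581), while from WT to miR-142 KO its log2 fold change was 0.081 (adjusted p = 0.425). Ptpa, 226 bases from Crat, had a log2 fold change of 0.078 from CP CML to BC CML (adjusted p = 0.283) and rose by 0.25 from WT to miR-142 KO (adjusted p = 0.00131). The 4 named genes most like Crat over the 24 libraries were Hexa, a lysosomal hexosaminidase (r = 0.953), Fam20c, a kinase of secreted proteins (r = 0.951), Tbc1d2b, a protein with a Rab GTPase-activating domain (r = 0.95), and Pcyt1a, the regulated enzyme of phosphatidylcholine synthesis (r = 0.95). Hexa averaged 197.5 ± 16.7 CPM in BC CML and 173 ± 19 in miR-142 KO LSKs, against 124 ± 10.9 in CP CML and 112 ± 22.9 in WT LSKs. It was picked by its correlation in these same libraries, so sharing the order of groups with Crat is a description only. Among the 8 genes themselves, Crat was most like Cpt2 (r = 0.776) and least like Cpt1c (r = -0.741).

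Crot (chromosome 5, 8966048 to 8997146, minus strand), the only one of the 8 with a match to the miR-142a-3p seed, was lowest in CP CML LSKs. Its lowest, median and highest levels were 77.8, 79.5 and 90 CPM in BC CML LSKs and 63.3, 72.5 and 79.7 CPM in CP CML LSKs, with overlap. In WT LSKs they were 79.3, 87.5 and 90.1 CPM, and in miR-142 KO LSKs 72.9, 86.5 and 95.4 CPM. The WT and miR-142 KO ranges lay within or across each other, and only the highest CP CML library passed the lowest WT library. Crot fell by 0.26 from WT to CP CML (standard error 0.059, adjusted p = 0.00101) and rose by 0.17 from CP CML to BC CML (standard error 0.059, adjusted p = 0.0224). Between WT and miR-142 KO its log2 fold change was -0.0095 (standard error 0.058, adjusted p = 0.915), with bounds at 2 standard errors of -0.13 and 0.11. The rise from CP CML to BC CML was lost when any 1 of 8 libraries was left out, CP CML replicates 1, 2, 3 and 4 and BC CML replicates 1, 3, 4 and 5 (log2 fold changes from 0.12 to 0.17, adjusted p from 0.0513 to 0.108), and under upper quartile normalization (0.13, adjusted p = 0.0999). By sex it was 0.20 in females (adjusted p = 0.159) and 0.13 in males (adjusted p = 0.242). The fall from WT to CP CML was 0.26 in females (adjusted p = 0.0475) and 0.26 in males (adjusted p = 0.0302).

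The genes around the shuttle were taken from 6 lists and described by their counts and medians. Of all tested genes, 20.4% rose and 17.6% fell from CP CML to BC CML (median log2 fold change 0.014), and 19.9% rose and 16.4% fell from WT to miR-142 KO (median 0.0054). A count near these shares is not a result about its list. Of 20 enzymes of mitochondrial beta-oxidation, which use what the shuttle delivers, 10 rose from CP CML to BC CML (20.4% of all genes) and 1, Acadm, fell (17.6% of all genes; -0.12, adjusted p = 0.0458; named after its value was seen), with a median log2 fold change of 0.16 against 0.014 for all genes. Etfb, a subunit of the electron transfer flavoprotein that takes electrons from acyl-CoA dehydrogenases, rose from 146 ± 19.4 to 199 ± 14.7 CPM (log2 fold change 0.45, adjusted p = 9.46e-05). Its partner Etfa rose from 81.1 ± 3.15 to 97.3 ± 2.16 CPM (0.26, adjusted p = 0.000221). Acadvl, the very-long-chain acyl-CoA dehydrogenase that takes up the acyl-CoA made by Cpt2, rose from 56.3 ± 6.90 to 70.4 ± 4.48 CPM (0.32, adjusted p = 0.000273), and Decr1, which handles unsaturated chains, rose by 0.23 (adjusted p = 0.000145). From WT to miR-142 KO, 10 of the 20 rose and 3 fell, against 19.9% and 16.4% of all genes (median 0.12 against 0.0054), with Etfb at 0.61 and Acadvl at 0.34. In the difference of the miR-142 effects 0 of the 20 passed the test.

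Of 13 tested genes of peroxisomal beta-oxidation, the pathway that yields the substrates of Crot, 4 rose and 1 fell from CP CML to BC CML (20.4% and 17.6% of all genes; median 0.11 against 0.014). Hsd17b4, the D-bifunctional protein, rose by 0.27 (adjusted p = 7.7e-06), Acaa1a, a peroxisomal thiolase with a close copy in Acaa1b, by 0.28 (adjusted p = 0.00513), and Acot8, a peroxisomal thioesterase, by 0.29 (adjusted p = 0.00731). Ehhadh, the L-bifunctional protein, fell by 0.64 (adjusted p = 0.000146). From WT to miR-142 KO, 4 of the 13 rose and 3 fell (19.9% and 16.4% of all genes; median 0.11 against 0.0054).

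Of 17 tested genes of fatty acid uptake and activation, 6 rose and 5 fell from CP CML to BC CML (20.4% and 17.6% of all genes; median -0.02 against 0.014). From WT to miR-142 KO 2 of the 17 rose and 7 fell (19.9% and 16.4% of all genes; median 0.019 against 0.0054). Acsl1, an acyl-CoA synthetase of the kind that makes the substrate of Cpt1a, rose from 99.6 ± 11.3 to 137.5 ± 9.86 CPM (log2 fold change 0.47, adjusted p = 2.11e-05) and by 0.86 from WT to miR-142 KO (adjusted p = 3.54e-09). Acot7, a cytosolic thioesterase, rose by 0.49 (adjusted p = 9.79e-07). Acot1, another cytosolic thioesterase, fell by 1.06 (adjusted p = 2.08e-05), though its reads may be shared with the near-identical Acot2. Slc27a6, a fatty acid transport protein, fell by 1.33 (adjusted p = 2.51e-05).

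For the supply of carnitine, 8 of 13 listed genes were tested, and 1 rose and 0 fell from CP CML to BC CML (20.4% and 17.6% of all genes; median -0.014 against 0.014): Slc22a4, a carrier of ergothioneine and, weakly, carnitine, rose from 14 ± 3.67 to 22.1 ± 2.47 CPM (0.66, adjusted p = 0.0387). From WT to miR-142 KO 3 of the 8 rose and 1 fell (19.9% and 16.4% of all genes; median 0.14 against 0.0054), with Slc22a4 at 5.07 ± 2.95 in WT and 16.2 ± 1.46 CPM in miR-142 KO LSKs (1.68, adjusted p = 2.34e-05). Among 11 tested genes that set or sense malonyl-CoA, the inhibitor of CPT1 enzymes, 2 rose and 2 fell from CP CML to BC CML (20.4% and 17.6% of all genes; median -0.07 against 0.014). Acacb, the acetyl-CoA carboxylase at the outer mitochondrial membrane that makes malonyl-CoA, rose from 6.83 ± 1.29 to 10.2 ± 1.95 CPM (0.57, adjusted p = 0.00489), and Stk11, the kinase LKB1 upstream of AMPK, rose by 0.27 (adjusted p = 7.67e-05). Prkab1 and Prkag2, regulatory subunits of AMPK, fell by 0.32 (adjusted p = 0.00155) and 0.38 (adjusted p = 0.0018). In miR-142 KO against WT 4 of the 11 rose and 3 fell (19.9% and 16.4% of all genes; median 0.091 against 0.0054).

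Among 14 tested regulators of transcription, 4 rose and 3 fell from CP CML to BC CML (20.4% and 17.6% of all genes; median 0.023 against 0.014). In miR-142 KO against WT 6 of the 14 rose and 2 fell (19.9% and 16.4% of all genes; median 0.035 against 0.0054). Nfe2l2, the activator of antioxidant genes, rose by 0.41 (adjusted p = 1.15e-07), and Esrra, an orphan nuclear receptor that drives oxidative genes, by 0.29 (adjusted p = 1.28e-05). Hnf4a, a nuclear receptor known as an activator of Cpt1a in liver, fell from 63.6 ± 7.83 to 22.1 ± 2.40 CPM (-1.52, adjusted p = 1.28e-07) and from 70.45 ± 21.8 in WT to 23.6 ± 4.90 CPM in miR-142 KO LSKs (-1.58, adjusted p = 7.97e-08). Nrip1, a corepressor of nuclear receptors, fell by 0.50 (adjusted p = 5.24e-05). Ppara itself was below the filter on low counts and was not tested.

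**Figure D5:**
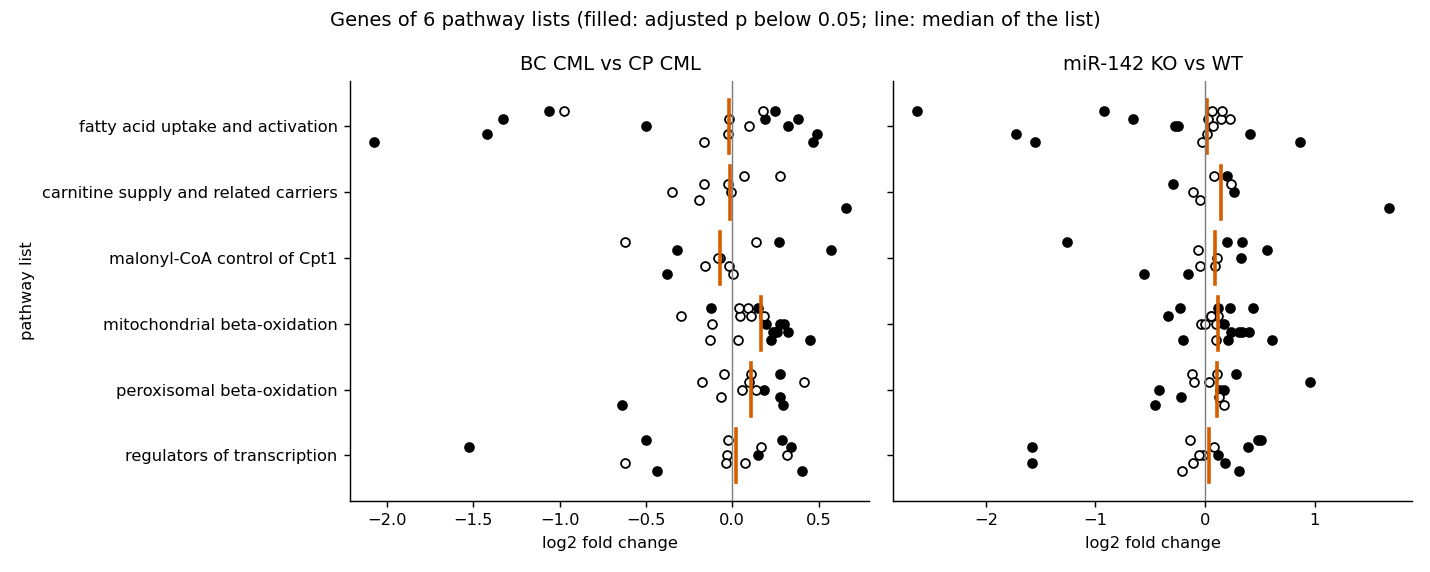
Log2 fold changes (x axis) of the tested genes of 6 pathway lists (y axis) for BC CML against CP CML and for miR-142 KO against WT, 1 point per gene, filled where the adjusted p is below 0.05, with the median of each list as a line. The median of mitochondrial beta-oxidation lay at 0.16 in the first comparison and 0.12 in the second.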

How the data were processed

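LSKs were profiled by bulk RNA-seq (Kapa mRNA HyperPrep, NovaSeq6000). The values deposited by the authors are raw read counts per gene: as the paper's methods and the labels state, reads were trimmed (Trimmomatic, FASTP), mapped to mm10 with STAR 2.6.0 and counted with HTSeq-count 0.11.1. Annotation and strand setting are not given in the sources used here. All 24 columns of counts were matched to mice by their labels, and 0 were left out. The deposited gene length in kb gave RPKM.

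Differential expression was tested in edgeR 4.0.16 (R 4.3.3): filterByExpr, TMM, 24 libraries in 1 fit, quasi-likelihood tests, Benjamini-Hochberg adjustment over 13520 genes and a threshold of 0.05. Sex differences used 8 groups. Of 200 genes changed by 1 on the log2 scale in counts simulated for BC CML against CP CML, this test called 200, with 11 false calls among 13382 genes tested. The simulation gave every gene the same dispersion and changed no genes of the lowest levels. It therefore checks that the fit runs as intended, and does not measure how well smaller changes or genes near the detection limit are called. No 2 libraries of a group agreed within sampling noise (lowest chi-square 5.95 per degree of freedom over 60 pairs). Correlations used log2 CPM with a prior count of 2. Sequences came from RefSeq and GENCODE.

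The 8 genes, the gene lists and the motifs were chosen with earlier results of these data known. Genes of lists were named by the 4 smallest p for BC CML against CP CML among those past the threshold. Alternatives were the likelihood ratio test, DESeq2 1.42.0, RLE factors, upper quartile normalization, no filter, at least 1 CPM in 6 libraries, sex as a covariate, only the groups compared, totals without TMM, and each mouse left out; fits on 1 sex were added after seeing the data. Labels do not say how the mice relate by litter or date. The p-values set group differences against the spread between mice within groups. A litter or date that goes with a group cannot be told apart from its genotype.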

Additional observations from a re-analysis of the deposited data

Results flagged for a closer look

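In the difference of the miR-142 effects, tested as a contrast, Cpt1a stood at -0.45 on the log2 scale (adjusted p = 0.0345), with a change of -0.44 from CP CML to BC CML and of 0.0098 from WT to miR-142 KO LSKs.

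Of 32 sets of 6 libraries (8 genes in 4 groups), 4 had a library far from the other 5 by Dixon's test, where chance marks about 1 in 20. The lowest WT library of Cpt1a, replicate 1, was at 220.2 CPM with the next at 284. Without it the difference of the miR-142 effects was -0.38 (adjusted p = 0.0537). The highest miR-142 KO library of Cpt1c, replicate 2, was at 0.574 CPM with the next at 0.309. For Cpt2 the lowest miR-142 KO library, replicate 6, was at 28 CPM with the next at 30.8. For Slc25a20 the lowest miR-142 KO library, replicate 5, was at 27.95 CPM with the next at 31.1.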

How the results depend on the processing

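Directions of the called changes of the 8 genes held in every alternative that gave a value. For Crat, Cpt1a, Cpt2 and Slc25a20 between BC CML and CP CML so did the call in every fit with both sexes. Cpt1c kept its call there in the fits that tested it, but it was not tested with at least 1 CPM in 6 libraries. It passed the main filter only through WT and CP CML LSKs, so its kept call is no support for a change. Upper quartile normalization moved the split of calls over all genes from 2757 higher and 2380 lower to 2162 and 2932 for BC CML against CP CML, from 2685 and 2222 to 2115 and 2918 for miR-142 KO against WT, from 2747 and 2611 to 2383 and 3135 for BC CML against miR-142 KO, and from 3045 and 3098, already with more lower calls, to 2642 and 3702 for CP CML against WT. For BC CML against CP CML, 53.7% of calls were higher, which was 47.95% to 49.92% over the 12 fits without 1 of its mice, 49.5% with at least 1 CPM in 6 libraries and 50.5% with RLE factors, so that neither direction was the more frequent one in all settings. Calls that appeared there were Cpt1b between BC CML and CP CML (-0.30, adjusted p = 0.048), Slc25a20 between miR-142 KO and WT (-0.18, adjusted p = 0.0324) and Slc22a5 between CP CML and WT (-0.14, adjusted p = 0.0131). DESeq2 called 895 genes in the difference of the miR-142 effects against 539, and the likelihood ratio test called 33 genes against 1 for the sex difference of miR-142 KO against WT. Between BC CML and miR-142 KO 1 of the 8 genes was called instead of 2 by the likelihood ratio test, DESeq2, RLE factors, upper quartile normalization, no filter, at least 1 CPM in 6 libraries and only the groups compared. The causes of these changes were not tested.

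Signs turned only for values that did not pass the test. Slc22a5 between BC CML and CP CML was -0.0059 in DESeq2, -0.0065 with RLE factors, -0.040 with upper quartile normalization, -0.014 with at least 1 CPM in 6 libraries and -0.0099 with only the groups compared. Upper quartile normalization also gave -0.041 for Cpt1a between miR-142 KO and WT and -0.025 for Slc25a20 between BC CML and miR-142 KO, which was -0.0013 with at least 1 CPM in 6 libraries. Over the fits that left out 1 mouse, Slc22a5 between BC CML and CP CML ran from -0.033 to 0.0032, Cpt1a between miR-142 KO and WT from -0.052 to 0.064, Crot there from -0.036 to 0.043, and Cpt2 between CP CML and WT from -0.12 to 0.014. Slc25a20 between BC CML and miR-142 KO ran from -0.042 to 0.042 and Cpt1c there from -0.50 to 0.021, and Cpt1c in the difference of the miR-142 effects from -0.26 to 0.26. The number of the 8 genes called ran from 1 to 2 for BC CML against miR-142 KO and from 0 to 1 for the difference of the miR-142 effects. Calls appeared for Cpt1b between BC CML and CP CML without BC CML replicate 5 (adjusted p = 0.0426), for Slc25a20 between CP CML and WT without CP CML replicate 4 (0.0365) or 6 (0.0479), for Slc22a5 there without WT replicate 1 (0.0239) and for Crot between BC CML and miR-142 KO without miR-142 KO replicate 3 (0.0413).

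Fits on 1 sex, with 3 mice per group and chosen after seeing the data, called fewer genes over the whole table, but not fewer of the 8 for CP CML against WT in females. Females gave 1693 genes and 3 of the 8 for BC CML against CP CML, 2308 and 2 for miR-142 KO against WT, 3059 and 4, against 3 with both sexes, for CP CML against WT, 938 and 1 for BC CML against miR-142 KO, and 28 and 0 for the difference of the miR-142 effects. Males gave 3794 and 4 for BC CML against CP CML, 2915 and 2 for miR-142 KO against WT, 3749 and 1 for CP CML against WT, 3977 and 1 for BC CML against miR-142 KO, and 50 and 0 for the difference. In males the sign turned for Slc22a5 between BC CML and CP CML (-0.044), for Cpt1a (-0.11), Cpt1b (-0.10) and Crot (0.051) between miR-142 KO and WT, for Slc25a20 between CP CML and WT (-0.022) and for Slc25a20 in the difference (0.023). In females it turned for Cpt1c (0.0092) and Cpt2 (0.10) between CP CML and WT, for Cpt1b (-0.014) and Crot (0.021) between BC CML and miR-142 KO, and for Cpt1c (-0.17) and Cpt2 (-0.055) in the difference. Without TMM factors the mean of Slc22a5 in BC CML LSKs was 24.2 instead of 25.3 CPM, the only one of 32 group means to move by more than its SD. Cpt1c, at 1 to 31 counts per library, is the gene whose values depth limits most. No paired analysis was possible because replicate numbers were given in the order of the deposit and pair no mice.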

Other observations

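Ratios of levels per length describe how the steps of the shuttle stood to each other in the same library. Cpt1a RPKM divided by Cpt2 RPKM was 7.97 ± 0.97 in CP CML LSKs (range 6.78 to 9.16) and 4.63 ± 0.25 in BC CML LSKs (4.26 to 4.91; SD, n = 6). It was 5.75 ± 0.71 in WT (4.47 to 6.50) and 5.01 ± 0.61 in miR-142 KO LSKs (4.12 to 5.83), so every CP CML library was above every library of the other groups. Cpt1a RPKM divided by Slc25a20 RPKM varied less, from 3.40 ± 0.24 in WT to 4.09 ± 0.19 in CP CML LSKs, with 3.75 ± 0.21 in miR-142 KO and 3.63 ± 0.22 in BC CML LSKs. Crot RPKM divided by Crat RPKM was 1.99 ± 0.22 in BC CML, 2.73 ± 0.38 in CP CML, 2.40 ± 0.18 in miR-142 KO and 3.497 ± 0.47 in WT LSKs. These ratios were formed after the values were seen and were not tested.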
